A study of Mus musculus with 17 samples.

Results

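The hypothalamus of leptin-deficient ob/ob mice was compared with that of control mice on Affymetrix expression arrays, using 11 of the 17 arrays of the series: all 5 arrays titled ob/ob hypothalamus and all 6 titled control hypothalamus. Every mouse was a male of the C57Bl/6 strain aged 9 weeks, and each array held RNA from 1 hypothalamus. Control mice were labelled wildtype and, per the treatment protocol, received vehicle. The ob/ob mice were labelled by genotype only, and their labels name no injection of their own. The remaining 6 arrays, from mice given streptozotocin (STZ), which kills pancreatic beta cells and so causes diabetes, entered the fit for the estimate of the spread and are cited only beside an ob/ob value. The labels say nothing of litters, body weight, glucose or feeding state. The ob mutation acts in every tissue and throughout life, so the direct absence of leptin and the obesity and insulin resistance that follow it cannot be told apart in these groups.

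Leptin is a hormone of fat cells that reports energy stores to the brain. In the arcuate nucleus of the hypothalamus it stimulates neurons that make Pomc, from which the satiety peptide alpha-MSH is cut, and restrains neurons that make Npy and Agrp, which promote feeding. Ob/ob mice carry a mutation in Lep that prevents a functional hormone from being made. They overeat, become obese and insulin resistant, run a low body temperature and have raised circulating corticosterone, the glucocorticoid of rodents.

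The values were MAS5 signals, a linear brightness per probe set, of which 13576 were bright enough to be tested. A difference is given as the log2 of ob/ob over control with its standard error (SE), always for 5 against 6 arrays, and "passed" means an adjusted p under 0.05 (limma, Benjamini-Hochberg over all probe sets tested). The median signal ran from 638 to 697 over the control arrays and from 660 to 704 over the ob/ob arrays, and log2 signals correlated between arrays at 0.961 to 0.971. Median signal and the 3 prime to 5 prime and 3 prime to middle ratios of Gapdh and Actb, which report RNA quality, gave exact two-sided permutation p-values from 0.281 to 0.978 between the groups. Of the cell type markers checked on the array, all 19 of neurons, 17 of oligodendrocytes and 18 of astrocytes passed the signal filter, as did 13 of 17 of microglia, 16 of 22 of endothelium and pericytes and 9 of 21 genes that mark the hypothalamus. In whole tissue, fewer cells of a type and less RNA per cell cannot be told apart.

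Ttr, the transthyretin gene, a carrier of thyroid hormone and retinol that is made in bulk by the choroid plexus, read 945, 1028, 4756, 10812 and 1007 in ob/ob 1 to 5 on its brightest tested probe set. The controls ran from 280 to 607, with a median of 465, so every ob/ob array was above every control and ob/ob 3 and ob/ob 4 were far above the other ob/ob arrays. On the other Ttr probe sets, too dim to be tested, ob/ob 3 and ob/ob 4 were again the highest: 111, 111, 2121, 6654 and 304 against 22 to 50 in controls, and 600, 371, 3102, 7411 and 747 against 114 to 389, where ob/ob 2 lay inside the control range. The difference on the tested probe set was 2.35 ± 0.49 and did not pass (adjusted p = 0.0558). Without ob/ob 4 it was 1.78, and without both ob/ob 3 and ob/ob 4 it was 1.21 (adjusted p = 0.125). The other 8 choroid plexus markers on the array (Kl, Folr1, Sostdc1, Slc4a5, Otx2, Aqp1, Cldn1 and Kcne2) were all under the signal filter, and none of their probe sets exceeded a signal of 374 in any ob/ob or control array. Folr1 ran from 249 to 374 in controls and from 190 to 374 in ob/ob, and Kl from 182 to 275 and from 218 to 279. Pituitary hormones were mostly dim, with Prl at 13 to 49 in controls and 12 to 98 in ob/ob, and Tshb at 256 to 376 and 177 to 470. Cga was uneven, at 145, 57, 512, 30, 219 and 408 in control 1 to 6 and 32, 51, 30, 43 and 221 in ob/ob. Dlk1, also an imprinted gene, was the only pituitary marker tested. It ran from 4112 to 5556 in controls, highest in control 3 and control 6, and from 3619 to 4659 in ob/ob. The part of pituitary tissue in these values was not tested.

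Markers of the brain regions that border the hypothalamus were also higher in ob/ob. The mean log2 signal of 28 genes of striatum, cortex with hippocampus, and thalamus ran from 10.25 to 10.58 over the controls and read 10.66, 10.65, 10.60, 10.73 and 10.64 in ob/ob 1 to 5, so the groups did not overlap. The STZ arrays ran from 10.38 to 10.68, also reaching above the highest control. All 9 striatum genes (median 0.237), all 10 cortex and hippocampus genes (median 0.185) and 8 of 9 thalamus genes (median 0.168) had positive values. Ppp1r1b, the striatal phosphatase inhibitor DARPP-32, read 2917, 2843, 2846, 3434 and 2756 against 1437 to 2559 in controls, a difference of 0.48 ± 0.15. Prkcd, a kinase of thalamic neurons, stood at 0.66 ± 0.20, and Nrgn, the forebrain protein neurogranin, at 0.30, which was 0.19 without ob/ob 3 and ob/ob 4. None of the 28 genes passed. The part of these markers in the results below was not tested. Values fitted with their mean level as a covariate (the region covariate) are given beside each other named gene, list median or count of 3 or more that they moved by over 1.5 times. The ob/ob arrays all lay above the controls in this level, so genotype and marker level cannot be separated by this fit. Its values extend a slope found within the groups and are not estimates with these regions removed. Over all genes, that fit left 327 higher and 209 lower at an unadjusted p under 0.05, against 519 and 442 without it.

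**Figure D1:**
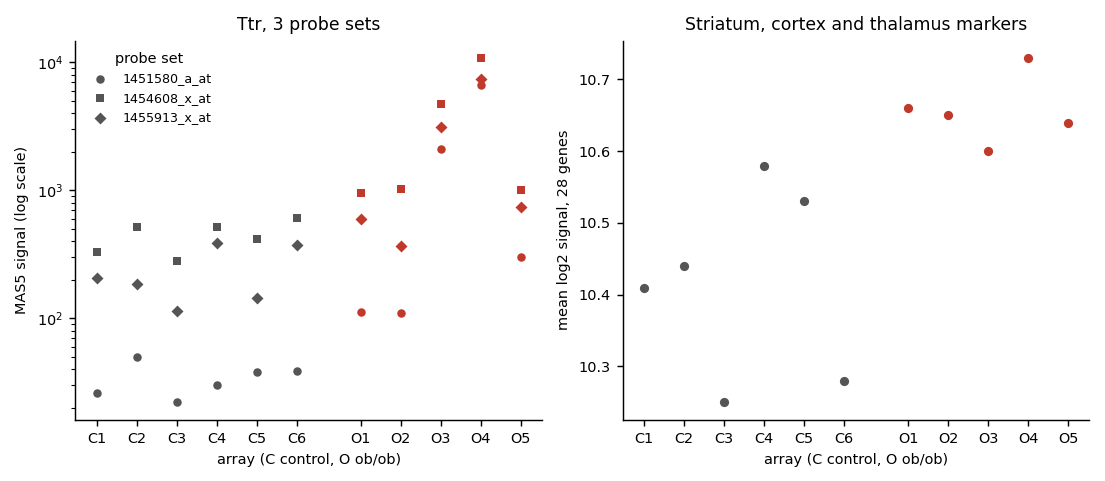
Left, MAS5 signal (log axis) of the 3 Ttr probe sets in each control (C1 to C6, gray) and ob/ob array (O1 to O5, red); the marker shape gives the probe set, and O3 and O4 are the highest on all of them. Right, mean log2 signal of 28 markers of neighbouring regions on the same arrays, where the ob/ob arrays (10.60 to 10.73) lie above all controls (10.25 to 10.58).

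Across the array few genes differed strongly. Of 13576 probe sets 17 passed (0.125%), 6 higher (0.0442%) and 11 lower (0.081%) in ob/ob, and these stood for 14 genes, beside 3 probe sets that the annotation ties to several symbols or none. With 1 probe set per gene, the brightest, 8 of 7990 genes passed (0.1%). The looser threshold of an unadjusted p under 0.05 was met by 519 genes that were higher (6.5%) and 442 that were lower (5.53%), and these shares are the background for the gene groups below. In 71 genes every ob/ob array lay above every control (0.889%), and in 69 every one lay below (0.864%). The middle of the distribution was narrow: the median log2 fold change over genes was 0.0053, the median absolute value 0.072, and 90% of genes fell between -0.17 and 0.23.

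**Figure D2:**
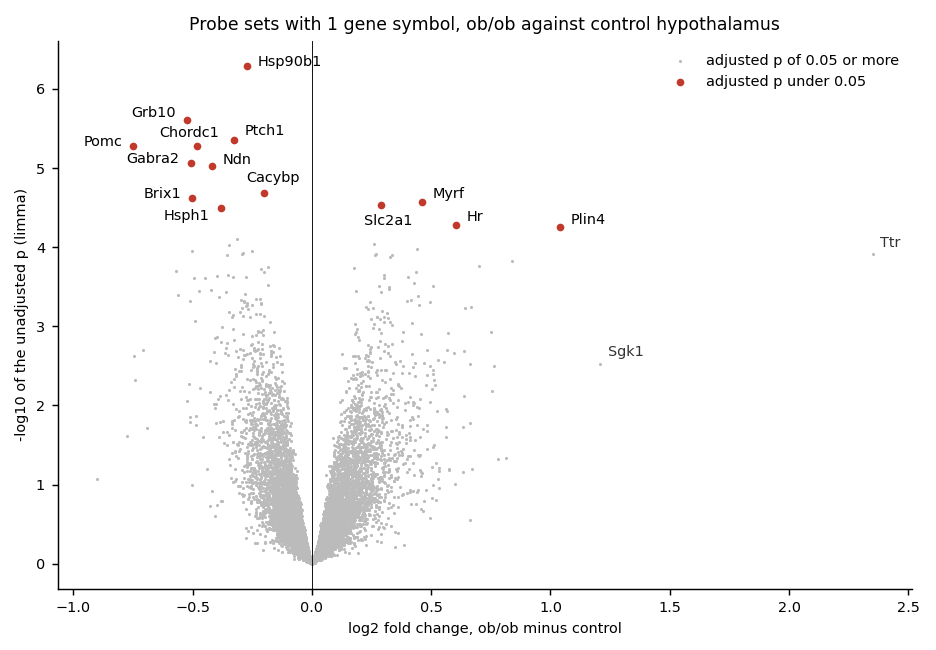
Each point is 1 tested probe set with 1 gene symbol; the x axis gives the log2 fold change of ob/ob over control and the y axis -log10 of the unadjusted limma p. The 14 genes that passed (red) reach from Pomc at -0.75 to Plin4 at 1.04, and Ttr (2.35) and Sgk1 (1.21) lie farthest to the right without passing.

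Changes past 1.5-fold were found in 14 genes higher and 4 lower, and past 2-fold in 3 higher and 0 lower. Ttr, Sgk1 and Plin4 were those 3. Where a gene at an unadjusted p under 0.01 had further tested probe sets, these had the same sign in 154 of 183 cases (84.2%), against 2802 of 4536 (61.8%) over all genes, and 64 of the 183 had an unadjusted p under 0.05 as well. Differences were larger in dim genes but met that threshold less often. With the genes split by control signal into 4 sets of equal size, the median absolute log2 fold change was 0.1 in the dimmest and 0.051 in the brightest, and the share at an unadjusted p under 0.05 was 8.46% and 13.3%. When each array was centred on its own median, 451 probe sets were higher and 1038 lower at that threshold, against 780 and 831 as deposited, and 2 were higher and 9 lower among those that passed.

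The count of 17 depended on the arrays included. It was 43 without control 4, 38 without control 2, 8 without control 1 or control 3, 9 without control 5, control 6, ob/ob 2 or ob/ob 5, and 11 without ob/ob 4. Without both ob/ob 3 and ob/ob 4 0 probe sets passed (limma; 1508 had an unadjusted p under 0.05), with adjusted p-values of the 14 genes from 0.0816 to 0.125, and with the region covariate none passed either (896 at an unadjusted p under 0.05). Hsp90b1, Grb10, Ptch1, Chordc1 and Pomc passed in all 11 fits that left out 1 array. Gabra2 missed the threshold without control 3 or ob/ob 5, and Ndn without ob/ob 2 or ob/ob 4. Slc2a1 missed it in 5 of the 11 fits, Myrf in 6, Brix1 in 7, Cacybp, Hsph1 and Plin4 in 8 and Hr in 9. The sizes moved little: leaving out any 1 array lowered the log2 fold change of these 14 genes by a factor of at most 1.22.

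**Figure D3:**
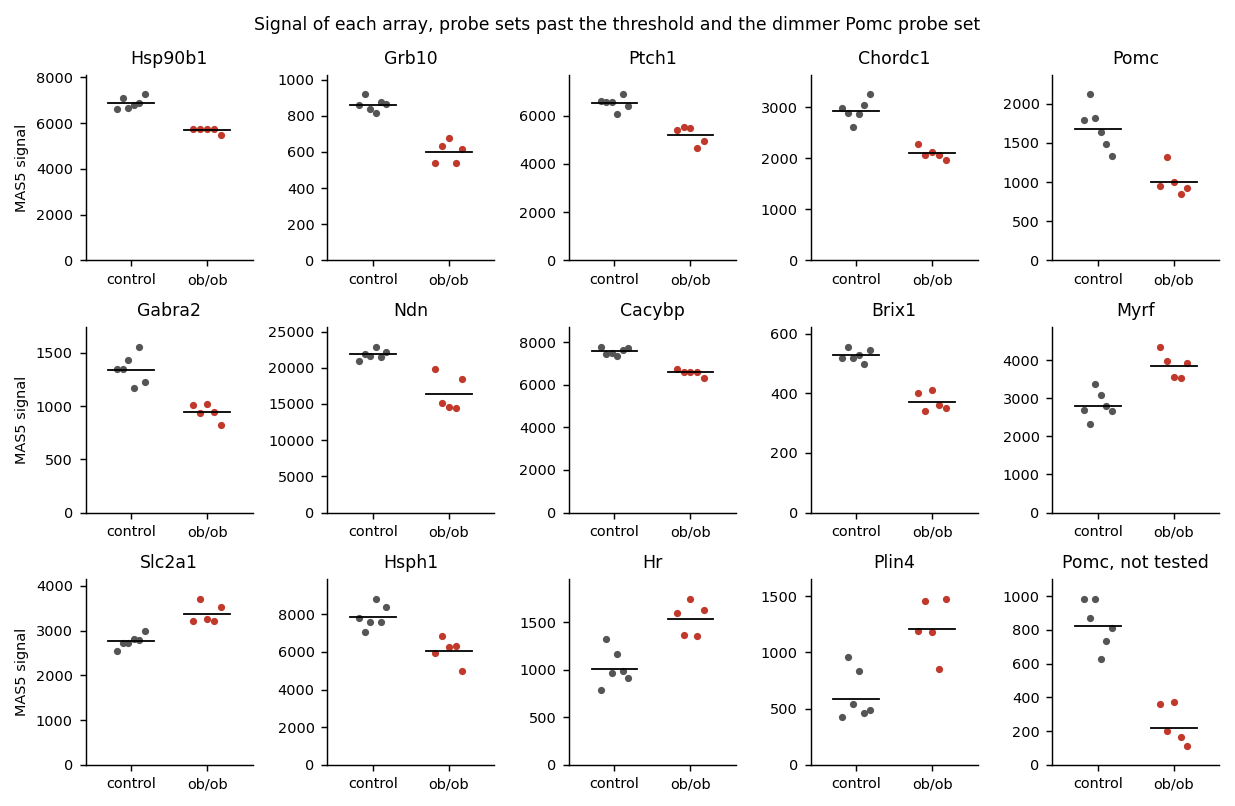
Signal of each control (gray) and ob/ob array (red) for the 14 probe sets that passed, ordered by p, and for the dimmer Pomc probe set, which was under the signal filter; lines are geometric means and the y axes start at 0. The groups overlap only for Plin4.

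Genes of the leptin system were examined first. Lep itself read 24 to 37 in controls and 41, 32, 26, 28 and 130 in ob/ob, near the bottom of the scale in both groups; as the ob mutation lies in the coding sequence, a transcript signal does not check the genotype. All 3 Lepr probe sets, for the leptin receptor, were under the filter, the brightest at 267 to 453 in controls and 210 to 357 in ob/ob. Socs3, a feedback inhibitor that leptin induces, was under the filter as well, with its brightest probe set at 266 to 615 in controls and 293 to 509 in ob/ob, so no difference was detectable at this signal. Of 10 tested genes of leptin receptor signalling 1 was higher and 2 lower at an unadjusted p under 0.05, and 0 passed. They were Ptpn11, the phosphatase SHP-2, at 0.14 ± 0.041, Il6st, the gp130 receptor subunit of related cytokines, at -0.16 ± 0.048, and Stat5b, a transcription factor, at -0.17 ± 0.067. The region covariate left 1 higher and 0 lower, with Stat5b at -0.066. The other tested probe sets of Il6st and Stat5b stood at -0.037 ± 0.084 and -0.071 ± 0.13 without the covariate. Stat3, the principal transcription factor downstream of the leptin receptor, stood at -0.14 ± 0.085.

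Pomc fell. Its brighter probe set read 953, 1325, 1005, 845 and 920 in ob/ob 1 to 5, and the controls ran from 1332 to 2118 with a median of 1716. All 5 ob/ob arrays lay below all controls, ob/ob 2 only just. The log2 fold change was -0.75 ± 0.12 (adjusted p = 0.0121). A second Pomc probe set, left out by the signal filter, read 362, 202, 370, 168 and 111 against 626 to 984 in controls, a larger difference (-1.92 ± 0.26, adjusted p = 0.0064 in the fit without a filter). In STZ mice, measured against the same controls, the brighter probe set stood at -0.65, and Pomc did not differ between ob/ob and STZ past the threshold.

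Among the other peptides of feeding control, no gene passed. Cartpt, which suppresses appetite and is made by the same arcuate neurons as Pomc, read 3826, 3383, 3462, 3512 and 4141 against 3934 to 4780 in controls (-0.29 ± 0.082), with 4 of 5 ob/ob arrays below all controls. Npy read 3085, 3603, 3524, 3701 and 3360 against 2572 to 3172 (0.27 ± 0.081), with 4 of 5 above. Hcrt, the orexin precursor of the lateral hypothalamus, which promotes wakefulness and feeding, read 5043, 5494, 5991, 5023 and 5528 against 6282 to 10501. All 5 ob/ob arrays were below all controls for Hcrt (-0.50 ± 0.11, adjusted p = 0.0687). Gal, galanin, stood at -0.30 ± 0.072 and Trh, the thyrotropin-releasing hormone, at -0.37 ± 0.14, with 4 and 3 ob/ob arrays below all controls. With the region covariate Hcrt stood at -0.21, Gal at -0.15 and Trh at -0.21. Cck, a satiety peptide also made in cortex, stood at 0.42 ± 0.12. Agrp, Pmch and Crh are not analysed here.

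Neurosecretory and other neuropeptides had 1 member higher and 5 lower of 16 at an unadjusted p under 0.05, with a median of -0.076. With the region covariate 2 were higher and 1 lower, and without ob/ob 3 and ob/ob 4 there were 3 lower. The 1 higher of 16 was Cck, and the 5 lower were Hcrt, Gal, Tac2, Trh and Oxt. Of these, Cck, Hcrt, Gal and Trh are feeding peptides already given above. Oxt, oxytocin, read 9798, 10399, 10802, 8024 and 10290 against 9723 to 12707 (-0.25 ± 0.10), and its value turned to 0.069 with the region covariate. Avp, vasopressin, read 15420, 13760, 16236, 13607 and 11558 against 10505 to 13929 (0.19 ± 0.12), and it stood at 0.53 with the region covariate. The groups overlapped for both hormones. Tac2, the neurokinin B precursor, stood at -0.25 ± 0.093 (-0.11 with the region covariate). Granins and enzymes of prohormone processing had 12 of 15 negative values and 2 at an unadjusted p under 0.05, Scg2 (-0.12 ± 0.046) and Chgb (-0.11 ± 0.046). They stood at -0.047 and -0.18 with the region covariate. Of 8 receptors for feeding peptides that could be tested none had an unadjusted p under 0.05 (limma, 0 passed).

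Chaperones of the endoplasmic reticulum (ER), which fold secreted and membrane proteins, were lower in ob/ob on several genes. Hsp90b1, the Hsp90 of the ER, read 5740, 5753, 5766, 5749 and 5481, and the controls ran from 6616 to 7258 with a median of 6845. The ob/ob arrays lay within a narrow band far under the lowest control. It fell by 0.27 ± 0.037 on the log2 scale on this probe set (adjusted p = 0.00645), while its brighter probe set stood at -0.20 ± 0.069 with overlapping groups. Of 22 ER chaperones tested 8 were lower and 0 higher at an unadjusted p under 0.05, 17 being negative, and the list median was -0.066. The mean log2 signal of the 22 genes ran from 11.77 to 11.86 in controls and from 11.68 to 11.73 in ob/ob. The count was 8 without ob/ob 3 and ob/ob 4, and 5 with the region covariate, where the median was -0.065.

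None of the other 7 members at that threshold passed. Manf, a secreted ER stress protein, read 2540, 2509, 2906, 2557 and 2561 against 2869 to 3643, with ob/ob 3 alone reaching the control range (-0.31 ± 0.063, adjusted p = 0.0558). Creld2, another ER stress protein, read 657, 728, 592, 650 and 677 against 722 to 903 (-0.32 ± 0.09). Calr, the calcium-binding chaperone calreticulin, read 11821, 12671, 12295, 12445 and 11746 against 13072 to 15077, with no overlap (-0.17 ± 0.045). The other Calr probe sets stood at -0.10 and -0.11, with overlapping groups. Pdia3 and Pdia6, protein disulfide isomerases, stood at -0.30 ± 0.075 and -0.26 ± 0.098, with ob/ob 5 in the control range for Pdia6 (3807 against 3271 to 3916). Hspa5, the chaperone BiP, read 8871, 9595, 10684, 10118 and 9103 against 10228 to 13139 (-0.23 ± 0.074), and Canx, calnexin, stood at -0.094 ± 0.045. Other ER folding genes were near 0, with P4hb, Fkbp2 and Ppib at -0.0034 ± 0.040, 0.028 ± 0.055 and 0.088 ± 0.091. Regulators of the unfolded protein response and of ER degradation had 1 member higher and 2 lower of 20, with a median of 0.03 that was -9.5e-05 after median centring. They were Selenos at 0.12 ± 0.044 (0.072 without ob/ob 3 and ob/ob 4), Sel1l at -0.20 ± 0.066 and Xbp1, the transcription factor of that response, at -0.16 ± 0.054 (-0.094 with the region covariate). That fit had 2 members higher and 1 lower, with a list median of 0.0195. Without the covariate, the other tested Selenos probe sets stood at 0.075 ± 0.083 and -0.079 ± 0.11.

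The ER chaperone genes are shown with the ER stress element, the motif through which the unfolded protein response is known to switch them on, because genes with and without it had different medians, and the sequence was not used to choose the list. The motif searched was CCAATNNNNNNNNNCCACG on both strands, in the 250 bases before each start in RefSeq (GRCm38.p6), and capitals mark it. It was found in 8 of the 18 tested ER chaperones with an entry (44.4%), against 12 of 6507 genes tested (0.184%) and 37 of 32851 promoters in all (0.113%). Those 8 are among the 12, and as the motif is already known for such genes, its share is not a result of these arrays.
Hsp90b1, chr10:86705628-86705666, minus strand: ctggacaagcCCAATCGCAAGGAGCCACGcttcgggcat
Hsp90b1, chr10:86705523-86705561, minus strand: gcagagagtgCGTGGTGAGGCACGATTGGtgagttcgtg
Hspa5, chr2:34772015-34772053, plus strand: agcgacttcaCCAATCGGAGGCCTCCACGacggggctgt
Calr, chr8:84847065-84847103, minus strand: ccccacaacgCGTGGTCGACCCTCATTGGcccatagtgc
Creld2, chr15:88819510-88819548, plus strand: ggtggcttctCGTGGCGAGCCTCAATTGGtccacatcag
Pdia6, chr12:17266481-17266519, plus strand: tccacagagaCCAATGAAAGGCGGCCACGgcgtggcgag
Canx, chr11:50325790-50325828, minus strand: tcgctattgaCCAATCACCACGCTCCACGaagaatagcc

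Hsp90b1 held the motif at both 89 to 107 and 194 to 212 bases before its start, in opposite orientations, and Hspa5 held it at 47 to 65. Of the 8 chaperones with a match, which include Dnajc3 (-0.10 ± 0.073) and Ero1b (0.036 ± 0.076), 7 had negative values and 6 an unadjusted p under 0.05, with a median of -0.188. Of the 10 without one, 6 were negative and 1, Pdia3, had an unadjusted p under 0.05, with a median of -0.017. Manf (-0.31) is among the tested chaperones that had no entry and is in neither set. This split is a description of which letters lie in the window, not evidence of binding.

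**Figure D4:**
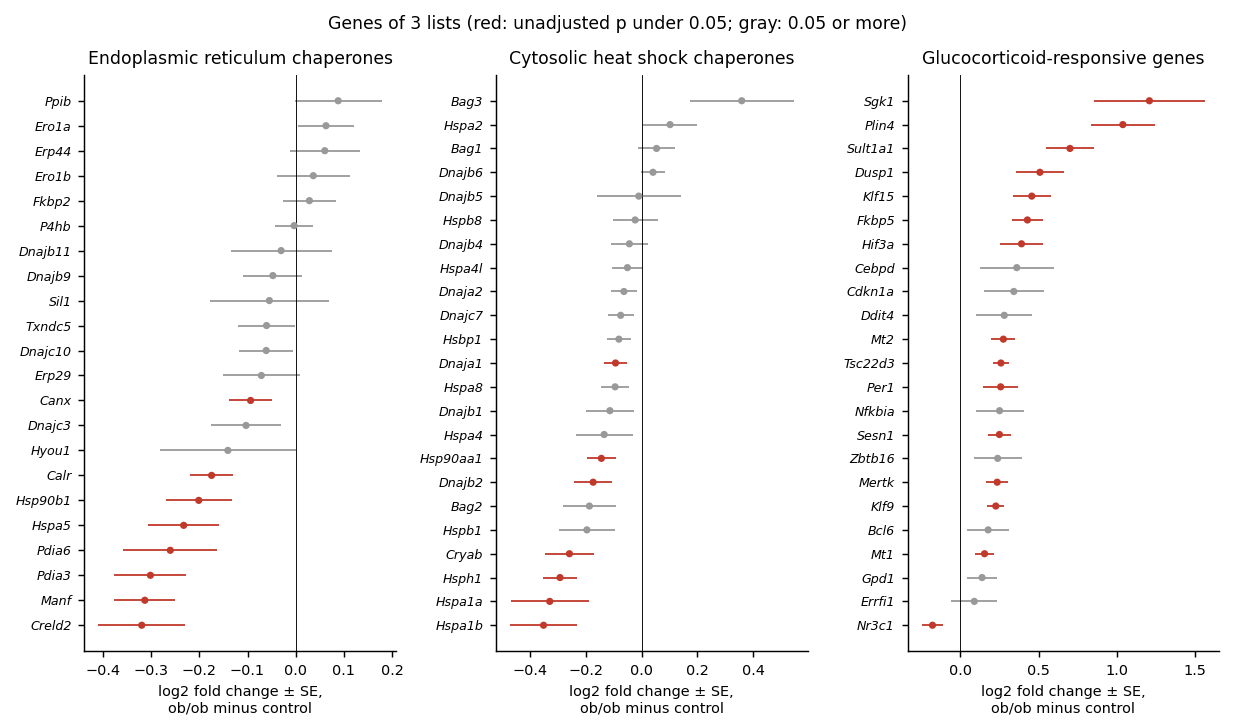
Log2 fold change of ob/ob over control for each tested gene of 3 lists, with bars of 1 SE; red points have an unadjusted p under 0.05. The ER chaperones run from Creld2 (-0.32) to Ppib (0.088), the cytosolic chaperones are mostly left of 0, and the glucocorticoid-responsive genes lie right of 0 except Nr3c1 (-0.18).

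Chaperones of the cytosol were lower as well. Hsph1, of the Hsp110 family that reloads Hsp70, read 5939, 6833, 6269, 6305 and 4967 against 7061 to 8821 in controls, with no overlap and ob/ob 5 the lowest. It fell by 0.38 ± 0.071 (adjusted p = 0.0306), and its other probe set, also without overlap, stood at -0.29 ± 0.061. Chordc1, a co-chaperone of Hsp90, read 2280, 2063, 2116, 2069 and 1967 against 2601 to 3247 and fell by 0.48 ± 0.078 (adjusted p = 0.0121). Cacybp, a calcyclin-binding partner of the Hsp90 machinery and of ubiquitin ligases, read 6725, 6619, 6624, 6619 and 6327 against 7368 to 7794, a small change in a tightly measured gene (-0.20 ± 0.036, adjusted p = 0.0305).

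Of 23 cytosolic heat shock chaperones 7 were lower and 0 higher at an unadjusted p under 0.05, and 19 had negative values (median -0.093). The 7 were 5 without ob/ob 3 and ob/ob 4 and 2 with the region covariate, where the median was -0.075. Hsp90aa1, the stress-inducible cytosolic Hsp90, had 3 probe sets at -0.14, -0.16 and -0.18, and on the last it read 15208, 14367, 15383, 15657 and 14388 against 15765 to 17781. Hspa1b, an inducible Hsp70, read 772, 710, 579, 651 and 603 against 772 to 933 (-0.35 ± 0.12), but it is nearly identical to Hspa1a, so their signals may not be separable. Cryab, a small heat shock protein of glia, stood at -0.26 ± 0.088, and Bag3, a co-chaperone of the same stress response, had a positive value of 0.36 ± 0.19. Among 14 Hsp90 co-chaperones 4 were lower and 1 higher, the exception being Fkbp5. In the CCT and prefoldin complexes, which fold actin and tubulin, 2 of 13 were lower, Cct4 (-0.17 ± 0.052) and Cct7 (-0.11 ± 0.041). Both were without overlap on the probe set used. The other tested Cct4 probe sets stood at -0.10, -0.16, -0.078 and 0.25. The other Cct7 one stood at -0.17, and the groups overlapped on all of these. The list median of -0.042 turned to 0.011 with the region covariate, and 0 were lower.

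In mitochondria the chaperonin pair Hspd1 and Hspe1, which form a barrel and its lid, stood at -0.13 ± 0.044 and -0.26 ± 0.09, with overlapping groups, and Hspe1 stood at -0.13 with the region covariate. Both genes share 1 promoter, in which 2 overlapping matches to the heat shock element GAANNTTCNNGAA were found, and it is shown because few other chaperone promoters held this motif.
Hspe1, chr1:55088049-55088086, plus strand: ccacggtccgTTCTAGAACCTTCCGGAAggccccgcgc
Among 33 tested cytosolic chaperones and co-chaperones with an entry 1, Dnajb6 (0.041 ± 0.043), held the element (3.03%), against 0.523% of genes tested and 153 of 32851 promoters in all. Cirbp, an RNA-binding protein that is induced when cells are cooled, read 4011, 3050, 3539, 3596 and 3826 against 2167 to 3183. Its value was 0.43 ± 0.096 (adjusted p = 0.0687), with ob/ob 2 alone in the control range. The other tested genes of the cold-inducible list had negative values, and the median of the 3 was -0.022 (0.028 with the region covariate).

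Genes that glucocorticoids induce were higher. Plin4, a coat protein of lipid droplets, read 1189, 1461, 1183, 854 and 1478, and the controls ran from 422 to 958 with a median of 516. It rose by 1.04 ± 0.20 (adjusted p = 0.0449), with ob/ob 4 inside the control range and the other 4 above it. Of 23 glucocorticoid-responsive genes 14 were higher and 1 lower at an unadjusted p under 0.05, against 6.5% and 5.53% of all genes, and 22 had positive values. The median was 0.26, and it was 0.224 with the region covariate (10 higher) and 0.297 without ob/ob 3 and ob/ob 4 (13 higher). The mean log2 signal of the list ran from 10.76 to 11.13 in controls and from 11.20 to 11.29 in ob/ob. Control 2 and control 6 stood near the ob/ob arrays, at 11.09 and 11.13, and the other controls at 10.76 to 10.86. In STZ mice the same list had a median of 0.149 against the same controls.

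The members other than Plin4 did not pass singly. Fkbp5, a co-chaperone that dampens the glucocorticoid receptor, read 2896, 2676, 2347, 2832 and 2738 against 1844 to 2104, well apart from the controls (0.43 ± 0.097, adjusted p = 0.0761). Tsc22d3, the leucine zipper protein GILZ, read 6568, 6094, 6238, 5264 and 6039 against 4714 to 5501 (0.26 ± 0.053, adjusted p = 0.0558), with ob/ob 4 in the control range. The other tested Tsc22d3 probe sets stood at 0.22 ± 0.083 and 0.011 ± 0.11. Sult1a1, a sulfotransferase, read 1407, 1100, 1057, 1297 and 1361 against 490 to 995 (0.70 ± 0.15), with no overlap. Sgk1, a kinase chosen for description after its values were seen, read 12006, 10121, 8766, 10230 and 9667. Its controls were spread widely, at 2462 to 3836 in 4 arrays, 7813 in control 2 and 11179 in control 6, so the difference of 1.21 ± 0.36 did not pass (adjusted p = 0.164). The receptor Nr3c1 itself stood at -0.18 ± 0.069.

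Sgk1 is shown because its promoter holds a full palindromic glucocorticoid response element, searched as GNACANNNTGTNC on both strands, at 176 to 188 bases before the start.
Sgk1, chr10:21993692-21993724, plus strand: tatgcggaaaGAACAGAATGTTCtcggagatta
This strict motif was present in 2 of 19 listed genes with an entry (10.5%), Sgk1 and the metallothionein Mt1 (0.15 ± 0.060), against 0.323% of genes tested and 0.387% of all promoters. As the list holds genes already known to respond to glucocorticoids, the share of the motif is not a result of these arrays. The 17 listed genes without it all had positive values, 12 of them at an unadjusted p under 0.05, with a median of 0.275. The part of the element in these values was not tested.

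Genes of the thyroid hormone axis and of the clock had more members higher than lower. Hr, a corepressor that thyroid hormone induces in brain, read 1600, 1365, 1745, 1351 and 1632 against 784 to 1327, and it rose by 0.60 ± 0.12 (adjusted p = 0.0449). Its other probe set stood at 0.028 ± 0.17. Klf9, a transcription factor that responds to both thyroid hormone and glucocorticoids, read 8799, 9140, 8024, 9032 and 8251 against 6680 to 8045 (0.23 ± 0.055), with ob/ob 3 just under the highest control, and stood at 0.12 with the region covariate. The other tested Klf9 probe sets ranged from -0.042 to 0.26 without the covariate. Crym, a thyroid hormone binding protein abundant in forebrain, read 2856, 2438, 2634, 3284 and 1881 against 1008 to 1952 (0.75 ± 0.20), and stood at 0.17 with the region covariate. With Ttr and Nrgn these made 5 of 12 thyroid axis genes higher at an unadjusted p under 0.05, and Trh made 1 lower, while 3 were higher and 0 lower with the region covariate. Ttr is the choroid plexus gene described above and Nrgn is among the neighbouring-region markers, as are Rora in the clock list and Egr3 among the immediate early genes. Klf9, Per1 of the clock list and Dusp1 of the immediate early genes were also counted among the higher glucocorticoid-responsive genes. In the clock list 5 of 19 were higher and 0 lower, with a median of 0.131 (0.089 with the region covariate, where 1 was higher). Tef, an output factor of the clock, read 8645, 9383, 9050, 9310 and 9296 against 7768 to 8765 (0.18 ± 0.039), and Per1 and Per2, components of the core loop, stood at 0.26 ± 0.11 and 0.29 ± 0.12, with Per1 at 0.11 under the region covariate. The other tested Tef probe set stood at 0.11 ± 0.088. Immediate early genes, which mark recent activity, had 3 of 14 higher, among them Dusp1 at 0.51 ± 0.15 and Egr3 at 0.51 ± 0.22, with overlapping groups. With the region covariate 1 was higher and Egr3 stood at 0.34, and without ob/ob 3 and ob/ob 4 also 1 was higher.

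Grb10, an adaptor that binds the insulin receptor and restrains it, and that is expressed from the paternal allele in brain, fell on 1 of its 3 tested probe sets. That probe set read 539, 634, 679, 539 and 614 against 815 to 918 in controls, with a wide gap between the groups (-0.52 ± 0.080, adjusted p = 0.0113). The brightest Grb10 probe set stood at -0.082 ± 0.044 (0.0072 with the region covariate) and the third at -0.042 ± 0.14, so the difference was not shared by all its probes. Of 23 genes of insulin receptor signalling 4 were higher and 1 lower at an unadjusted p under 0.05, and the median of 0.016 turned to -0.015 after median centring. The region covariate left 0 higher and 1 lower. Irs4, an insulin receptor substrate of the hypothalamus, read 531, 435, 468, 455 and 590 against 571 to 785 (-0.38 ± 0.10). Foxo1, a transcription factor that insulin restrains, had positive values on all 3 tested probe sets (0.29, 0.32 and 0.32, SE 0.088 to 0.12), of which the brightest stood at 0.18 with the region covariate. Insr, the insulin receptor, was under the filter, at 230.6 to 391.6 in controls and 275.8 to 377.9 in ob/ob on its brighter probe set.

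Ndn, the imprinted neuronal gene necdin, fell on 1 of its 5 tested probe sets. It read 19849, 15119, 14632, 14378 and 18449 against 20999 to 22924, all below the controls, with ob/ob 1 and ob/ob 5 nearest to them (-0.42 ± 0.071, adjusted p = 0.0159). The other 4 tested Ndn probe sets ranged from -0.19 to -0.35 with ob/ob 1 inside the control range on each, and without ob/ob 3 and ob/ob 4 the brightest stood at -0.11 against -0.19. In the list of 23 imprinted genes 5 were lower and 1 higher at an unadjusted p under 0.05, and 19 had negative values (median -0.055; with the region covariate -0.028 and 0 at that threshold, and 2 lower without ob/ob 3 and ob/ob 4). Asb4, an ubiquitin ligase subunit of arcuate neurons, stood at -0.57 ± 0.12 and -0.56 ± 0.13 on its probe sets, and Nnat, neuronatin, read 15439, 16190, 16961, 15058 and 15807 against 17460 to 18677 (-0.17 ± 0.048). The brighter Asb4 probe set stood at -0.23 and Nnat at -0.080 with the region covariate. Peg3 and Dlk1 stood at -0.11 ± 0.045 and -0.16 ± 0.075 on their brightest probe sets, with Dlk1 at -0.11 without ob/ob 4 and -0.0072 with the region covariate, and Magel2 had a positive value (0.23 ± 0.10).

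Slc2a1, the glucose transporter GLUT1 of the blood-brain barrier and astrocytes, was higher on all 3 probe sets. On the one that passed it read 3213, 3708, 3258, 3202 and 3529 against 2548 to 2984 (0.29 ± 0.054, adjusted p = 0.0305), and none of the 3 had overlapping groups. The others stood at 0.34 ± 0.071 and 0.30 ± 0.067. In STZ mice the same probe set stood at 0.31. Slc2a3, the neuronal glucose transporter, stood at 0.054 ± 0.059, and neither glycolysis (0 of 15) nor the citrate cycle (1 higher and 1 lower of 25) had more members at that threshold than the background.

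Genes that store or release fat were higher in part. Of 18 lipid droplet and lipolysis genes 5 were higher and 0 lower at an unadjusted p under 0.05 (median 0.06, mean log2 signal 10.45 to 10.56 in controls and 10.60 to 10.68 in ob/ob). Beside Plin4 these were Pnpla2, the triglyceride lipase ATGL, which read 1681, 1714, 1729, 1635 and 1850 against 1121 to 1501 (0.33 ± 0.094), Dgat2, which makes triglyceride (0.26 ± 0.067), Lpl, the lipoprotein lipase (0.53 ± 0.15), and Mgll, the monoglyceride lipase (0.31 ± 0.11). The region covariate left 2 higher, and with it Lpl stood at 0.17 and Dgat2 at 0.11. In fatty acid synthesis and desaturation 5 of 20 were lower and 1 higher (median -0.059), with Elovl5, an elongase, at 5993, 6628, 6228, 6264 and 6214 against 6781 to 7618 (-0.17 ± 0.049). Cholesterol, the subject of the series title, did not stand out. Of 17 biosynthesis enzymes 1 was higher, Tm7sf2 (0.37 ± 0.15, and 0.23 without ob/ob 3 and ob/ob 4), and 1 lower, Msmo1 (-0.13 ± 0.059), and the median of 0.02 turned to -0.0099 after median centring. Lcat, which esterifies cholesterol on lipoproteins, read 956, 977, 1076, 1230 and 1119 against 1240 to 1389 (-0.29 ± 0.084), without overlap and without passing.

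Genes of neuronal signalling differed singly. Gabra2, a subunit of the GABA-A receptor, read 1010, 938, 1023, 940 and 820 against 1173 to 1558 and fell by 0.51 ± 0.085 (adjusted p = 0.0159). Gad2, which makes GABA, stood at -0.16 ± 0.068, and the remaining 10 of 12 tested GABA genes had unadjusted p-values of 0.05 or more. Hrh3, the histamine autoreceptor, read 2415, 2446, 2479, 2527 and 2973 against 1871 to 2277, with ob/ob 5 the highest (0.33 ± 0.069, adjusted p = 0.0566). Of 27 ion channels 6 were higher and 0 lower at an unadjusted p under 0.05, among them the potassium channels Kcnn2 (0.30 ± 0.085) and Kcna1 (0.31 ± 0.10), and with the region covariate 2 were higher and 1 lower, with Kcna1 at 0.056. Without ob/ob 3 and ob/ob 4 there were 3 higher. None of 25 synaptic vesicle genes reached that threshold (limma, 0 passed).

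Ptch1, the receptor of Hedgehog ligands and itself a target gene of that pathway, fell on its brighter probe set. It read 5406, 5517, 5492, 4649 and 4940 against 6073 to 6879 (-0.33 ± 0.052, adjusted p = 0.0121), while a probe set at signals of 362 to 666 stood at -0.015 ± 0.22. Gli1, another target of the pathway, stood at -0.0036 ± 0.11. Ttc30a1, a subunit of the transport machinery of the primary cilium in which Hedgehog signals are received, read from 385.2 to 484.7 in the ob/ob arrays, with ob/ob 5 the lowest, against 552 to 728 (-0.50 ± 0.10, adjusted p = 0.0558). Of 26 pathway and cilium genes 4 were lower and 1 higher at an unadjusted p under 0.05, with a median of -0.054, and 2 were lower with the region covariate. Ttc8, a subunit of the BBSome, mutation of which is known to cause obesity, stood at -0.18 ± 0.067. Brix1, a ribosome assembly factor, read 402, 342, 411, 362 and 351 against 498 to 557 on a dim probe set that passed (-0.50 ± 0.091, adjusted p = 0.0305), and its brighter probe set stood at -0.034 ± 0.081 (0.047 with the region covariate, -0.0014 without control 1 and -0.098 without control 2).

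Genes of a glial cell type differed in sign among themselves. Myrf, the transcription factor of myelinating oligodendrocytes, read 4352, 3977, 3568, 3532 and 3914 against 2322 to 3377 and rose by 0.46 ± 0.084 (adjusted p = 0.0305). Mog, a myelin protein, and Sox10, a lineage factor, stood at 0.29 ± 0.10 and 0.29 ± 0.11, with Mog at 0.16 under the region covariate, whereas Olig2, a lineage factor shared with precursors, read 1468, 1382, 1722, 1713 and 1567 against 1743 to 2082 (-0.28 ± 0.068). The other tested Sox10 probe sets stood at 0.097 ± 0.085 and 0.062 ± 0.11. The summed signal of 17 oligodendrocyte markers ran from 134508 to 170592 in controls and from 151303 to 153640 in ob/ob, so the total was within the control range. Aqp4, the astrocyte water channel, read 5786, 5862, 6030, 6346 and 5523 against 6169 to 8384 (-0.29 ± 0.060), and Mlc1, which shares its end-feet, stood at -0.26 ± 0.087 with no overlap. Agt, angiotensinogen, and Gjb6, connexin 30, had positive values of 0.23 ± 0.081 and 0.14 ± 0.051 in the same cell type. Mlc1 stood at -0.13 and Agt at 0.44 with the region covariate.

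Microglial genes had mostly negative values. Of 13 tested markers 11 were negative and 2 lower at an unadjusted p under 0.05 (median -0.069; 4 lower and -0.135 without ob/ob 3 and ob/ob 4, 2 lower and -0.031 with the region covariate). Cx3cr1, the fractalkine receptor, read 799, 774, 872, 834 and 647 against 835 to 1443 (-0.49 ± 0.12), and Ly86 stood at -0.38 ± 0.13. Fcrls, a gene of resident microglia outside the list, read 696, 815, 803, 870 and 792 against 930 to 1110, with no overlap (-0.35 ± 0.074, adjusted p = 0.0558). P2ry12, C1qa and Csf1r stood at -0.10 ± 0.072, -0.10 ± 0.094 and -0.023 ± 0.055. Inflammatory genes had 1 higher of 10, and interferon-induced genes 0 of 11 in either direction (limma, 0 passed).

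**Figure D5:**
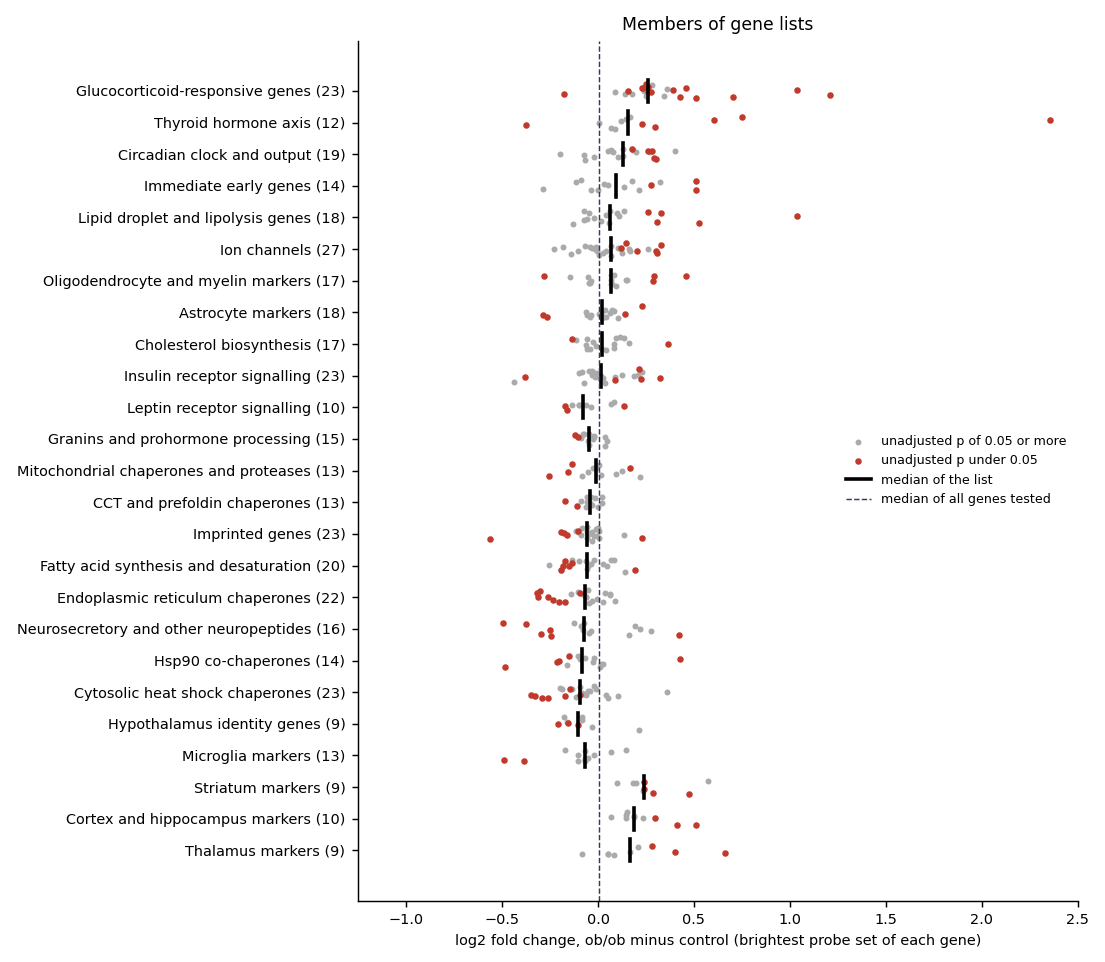
Log2 fold change of ob/ob over control for every tested member of 25 gene lists (the number tested is in brackets), on the brightest probe set of each gene; red points have an unadjusted p under 0.05, thick bars are list medians and the dashed line is the median of all genes (0.0053). Glucocorticoid-responsive genes (0.26) and striatum markers (0.237) have the highest medians drawn, and the genes marking the hypothalamus (-0.106) the lowest.

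Genes without a common theme were named for a small p, or for a large change among genes without overlap, and none of them passed. For genes named by size, lack of overlap was part of the rule of choice and not a result. Sgk3, a kinase related to Sgk1, was higher on all 3 probe sets without overlap (0.37, 0.49 and 0.45, SE 0.11 to 0.12), the brightest at 0.22 with the region covariate, reading 1603, 1615, 1515, 1451 and 1455 against 868 to 1352 on the brightest. Slc15a2, a peptide transporter, read 1554, 1306, 1349, 1337 and 1391 against 609 to 1071 (0.67 ± 0.16, and 1.03 with the region covariate), while its other probe set stood at 0.20 ± 0.14. Klf13, a transcription factor, Icam5, an adhesion molecule of forebrain neurons, and Stx17, a syntaxin of autophagy, stood at 0.27 ± 0.056, 0.40 ± 0.090 and 0.30 ± 0.067, and St6galnac3, a sialyltransferase, at 0.51 ± 0.12. Arhgap6, Gda, Ntmt1, Cyp4f15, Cmtm3 and Sntg1 stood at 0.36 to 0.52, all without overlap on the probe set used, although other probe sets of Arhgap6 (-0.14 and 0.022) and Ntmt1 (0.034) were near or below 0. Klf13 stood at 0.17 and Gda at 0.20 with the region covariate. On the lower side Xpo1, the nuclear export receptor, read 3257, 3170, 2893, 3047 and 2875 against 3416 to 3823 on its most precise probe set (-0.25 ± 0.052) and stood at -0.35 ± 0.078 on the brightest. The chromatin remodelling ATPase Smarca4 was at -0.20 ± 0.044, and its dimmer probe set at -0.041 ± 0.11. Pla2g15, Phf10, Nat8f4, Mrrf, Adcy8 and Plekho2 stood at -0.41 to -0.29, with other probe sets of Pla2g15 at -0.13 and of Nat8f4 at -0.23 and -0.070.

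Large gene machines moved little. The medians were -0.028 for 43 cytosolic ribosomal proteins, -0.022 for 71 mitochondrial ribosomal proteins, -0.025 for 75 respiratory complex subunits and -0.013 for 35 proteasome subunits, with at most 5 members lower and 1 higher in any of them at an unadjusted p under 0.05. In the same order these medians were -0.0063, 0.0175, -0.0058 and -0.0048 with the region covariate. With it mitochondrial ribosomal proteins went from 5 lower and 1 higher to 0 of either. Respiratory subunits went from 4 lower and 1 higher to 0 lower and 2 higher. Neurons as a class had 16 of 19 negative values (median -0.051, and -0.087 with the region covariate), and genes that mark the hypothalamus 8 of 9, with a median of -0.106 that was -0.064 with the region covariate. Ecel1, a peptidase of hypothalamic neurons, read 2596, 2899, 2808, 2689 and 3106 against 3140 to 3314 (-0.21 ± 0.059, and -0.14 with the region covariate). To look at the chromosome around the mutation, the 50 protein-coding genes on each side of Lep were also examined: of 45 tested, 3 were higher and 3 lower, and 0 passed (limma, 6 at an unadjusted p under 0.05), with a median of -0.022 (1 higher, 2 lower and -0.040 with the region covariate).

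Set directly against the STZ mice, 5 of 13576 probe sets differed from ob/ob past the threshold (0.0368%). They were 2 each of B2m and H2-K1, the light and a heavy chain of MHC class I, and 1 of Gbp7, an interferon-induced GTPase, and all were lower in ob/ob, by 0.42 to 0.73. Against the controls their ob/ob values ran from -0.20, on a B2m probe set, to 0.027 and did not pass. None of the 14 genes that passed in ob/ob against control differed from STZ past the threshold; a p that misses the threshold does not show that both groups changed alike. As the STZ and ob/ob values share their controls, they stand side by side here. In STZ Plin4 stood at 0.80, Chordc1 at -0.35, Myrf at 0.41 and Hr at 0.42. Ndn stood at -0.042, Gabra2 at -0.17, Hcrt at -0.15 and Fkbp5 at 0.11, with 0.34 on its other probe set. Fkbp5 and Hcrt did not differ between ob/ob and STZ past the threshold either. Pomc and the Slc2a1 probe set that passed in ob/ob also passed in STZ against control (limma, adjusted p = 0.0384 and 0.0199).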

How the data were processed

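RNA from whole hypothalamus (10 µg per mouse, per the labels' protocols) was hybridised to 1 Affymetrix array per mouse. The authors deposited linear intensity values, made with MAS5 according to the submitters' processing notes (its version is not given in the sources used here), which have a 2% trimmed mean of 1500.4 on every array. Detection calls were not used here. Of 22690 probe sets, 64 controls and 9050 under the 40th percentile of mean log2 intensity over 17 arrays (geometric mean 435) were left out. Gene names came from the platform annotation: 20380 probe sets had 1 symbol, 691 several and 1555 none, and the latter were counted but not named. A gene was represented by its brightest tested probe set, taking a cross-hybridising _x_at one only if it had nothing else. The files name no genome build.

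Group means of control, STZ and ob/ob were fitted with limma 3.58.1 (eBayes with trend, R 4.3.3). Benjamini-Hochberg adjustment ran over all probe sets tested. The p-values measure the spread between these mice only, and their number limits the precision (median SE 0.081). On simulated data 79% of 1.41-fold and 98% of 2-fold changes were recovered, with 7.6 and 6.67% of calls false. The simulation changed 200 probe sets and drew noise for each probe set independently. Shared differences between arrays were left out, so these shares need not hold for the real arrays. Array quality was compared by exact permutation over 462 splits (scipy 1.17.1). The gene lists (61) and genes were chosen with earlier results of these data known. Named genes were those that passed, then the next by p to 15 in each direction, the 10 largest in each direction among non-overlapping genes at an unadjusted p under 0.01, up to 4 per list, and 15 feeding and endocrine genes. Hspa5, Pdia6, Canx, Sgk1 and other list members with values were added after their values were seen. Alternatives covered the filter, scaling, model, covariate, replicate block and left-out arrays. Same-numbered arrays correlated at -0.11 to 0.109, so the numbers were not taken as pairs.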

Additional observations from a re-analysis of the deposited data

Results flagged for a closer look

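In 62 genes described at length, 124 groups of 5 or 6 arrays were examined for a single array far from the others, and 9 arrays were found, where chance gives about 1 in 20 groups. All 9 were ob/ob arrays. The array ob/ob 5 read 5481 for Hsp90b1 (group median 5749), 6327 for Cacybp (6619) and 385 for Ttc30a1 (464), each farther from the controls than the rest, and 2973 for Hrh3 (2479) and 1475 for Ntmt1 (1182), again on the far side. The array ob/ob 2 read 2743 for Klf13 (2424) and ob/ob 4 read 3434 for Ppp1r1b (2846), both away from the controls. The array ob/ob 3 read 2906 for Manf (2557), toward the controls, and ob/ob 1 read 1186 on the brighter Brix1 probe set (1442), which did not pass.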

How the results depend on the processing

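The 17 probe sets that passed became 38 with array weights, 29 with quantile normalization, 11 with median centring, 6 in a fit of only ob/ob and control, 0 with the neighbouring-region covariate and 0 without both ob/ob 3 and ob/ob 4 (chosen after seeing the data), and 14 to 17 with other filters, no trend or a pseudocount of 100. Leaving out 1 array gave 8 to 43. With the covariate 896 probe sets had an unadjusted p under 0.05, against 1611, and the SE of the 14 genes grew 1.37 to 1.43-fold while they kept 78.5 to 115% of their size. The cause was not tested for the other settings. With the replicate block 19 passed, 10 of them shared with the 17, and 1 of 5 same-numbered pairs correlated best with its own number. For ob/ob against STZ the count of 5 was 10 with array weights, 3 with a filter at the 60th percentile, 1 with the covariate, no filter, the replicate block or without ob/ob 3 and ob/ob 4, and 1 to 7 leaving out 1 array. Among genes at an unadjusted p under 0.05, the sign turned under the covariate for Ppp1r1b (-0.0116), Foxp1 (-0.0359), Pde1b (-0.0975) and Rgs9 (-0.0795), which are members of the covariate, and Oxt (0.0687). It also turned on the brightest Grb10 probe set (0.0072) and the brighter Brix1 one (0.047), neither of which was at that threshold. Signal limits genes under the filter, such as Lep, Lepr, Insr and Socs3.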
